A study of Mus musculus with 6 samples.

Results

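The repeat counts of the study were read for the retroviral repeat names MuLV, VL30 (MMVL30) and RLTR, each of which sums the reads of many genomic copies. Members were taken by a rule on names, which was set with earlier results of these data known. It took every repeat name that begins with MuLV, MMVL30 or RLTR followed by a number, 104 of the 1217 names. Of these, 12 end in -int and stand for the internal, protein-coding part of a provirus, and 92 are long terminal repeats (LTRs). The libraries were made from polyadenylated RNA of whole mouse embryos at stage E10.5, mid-gestation, with 3 samples in each group. Each sample is called an embryo below. Knockout embryos had the genotype H3f3afl/-; H3f3bfl/-, so that each gene for histone H3.3 had 1 null and 1 floxed copy, and control embryos H3f3afl/+; H3f3bfl/+. Both groups carried 1 Sox2-Cre transgene, a recombinase that acts in the epiblast, both were Trp53-/- (null for the gene of p53), and the strain was a mix of C57BL/6, CD1 and 129. The controls can therefore also delete their floxed alleles and are not embryos with intact H3.3 genes. Nothing in the labels says whether embryos were littermates or whether RNA was pooled, so p-values measure the spread between these samples, which may be technical.

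Endogenous retroviruses are proviruses that entered the germ line, with LTRs that hold the promoter and enhancer on both sides of an internal region with the viral genes. Murine leukaemia viruses (MuLV) are gammaretroviruses whose youngest proviruses differ between laboratory strains, present at a site in some and absent in others. VL30 elements are retrotransposons with gammaretrovirus-like ends that lack open viral genes and depend on other viruses to spread. The RLTR names cover many rodent LTR families of different ages, most of them left as solitary LTRs in introns and between genes. In early embryos, proviruses are silenced by the corepressor Trim28, the histone H3 lysine 9 methyltransferase Setdb1 and zinc finger proteins such as Zfp809, which binds the primer binding site of MuLV and VL30. Histone H3.3 is itself deposited at many endogenous retroviruses.

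Gene counts were 24952853 to 30461689 per library and repeat counts 2661391 to 4600118, of which the 104 names took 40275 to 57142. Alignments outside genes made up 9.79%, 10.7% and 13.1% in controls 1, 2 and 3, and 18.3%, 10.6% and 18.0% in knockouts 1, 2 and 3. H3f3a counts were 9685 to 10775 in controls and 1744 to 1996 in knockouts, and H3f3b counts 18942 to 21379 and 11431 to 13626, lower in the knockouts as labelled. Trp53, labelled null throughout, still had 64 to 88 counts in controls and 86 to 148 in knockouts, which pool all exons, at a log2 fold change of 0.71 ± 0.24 (SE; edgeR adjusted p = 0.167). Summed markers of neural tube were at 478 to 554 CPM in controls and 395 to 438 CPM in knockouts, those of heart at 84.6 to 96.8 and 102 to 143 CPM, and those of somites at 34.5 to 47.4 and 42.0 to 45.1 CPM. Genes within these sums differed. The heart gene Nppa was at 10.4 to 16.5 CPM in controls and 28.3 to 51.2 CPM in knockouts. Tnnt2 was also higher in every knockout, while Myl7 and Nkx2-5 overlapped. Among somite genes Myf5 was lower in every knockout, Tbx6 was higher and Meox1 overlapped. Of the neural genes, Tubb3, Neurog2 and Neurod4 were lower in every knockout, while Sox2 and Pax6 overlapped. Primitive red cell markers summed to 7434 to 9410 CPM in controls and were lowest in knockout 2, at 5379 CPM, with 8697 and 7823 CPM in knockouts 1 and 3. The 5 macrophage markers summed to 45.2 to 54.4 CPM in controls and 1.61 to 2.37 CPM in knockouts, none at 0 throughout, where CPM is the count scaled to a common library size by the gene counts (TMM). The 7 trophoblast markers summed to 1.99 to 2.90 CPM in controls and 0.631 to 1.88 CPM in knockouts, with 2 of them at 0 in all libraries. Their part in the results was not tested, and in whole embryos fewer cells of a type cannot be told apart from less RNA per cell.

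MuLV-int, the internal region of murine leukaemia virus, was high in 5 embryos and nearly missing from 1. Its counts were 2844, 3271 and 3237 in controls 1, 2 and 3 and 3651, 37 and 2188 in knockouts 1, 2 and 3. On the scaled level these are 97.6, 111 and 114 CPM for controls, and 141, 1.37 and 74.9 CPM for knockouts. Knockouts 1 and 3 lay above and below all controls, and knockout 2 was 54.5-fold below the lowest of the other libraries and 102-fold below the highest. The 37 counts carry an exact Poisson interval of 26.1 to 51.0 (95%, counting error only), or 0.966 to 1.89 CPM. Among the other 5 libraries the highest was 1.88-fold the lowest.

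MuLV-int was not called between the groups, and its highest and lowest libraries were both knockouts. The fitted log2 fold change was -0.58 ± 1.07 (SE), with an edgeR quasi-likelihood adjusted p of 0.688, and a two-sided exact permutation test of the CPM means gave p = 0.6, where 3 against 3 embryos cannot go below 0.1. Without knockout 2 the fold change was 0.0001, so the negative value rests on that embryo. Its size depended on the fit, at -1.25 with TMM on the repeat counts, -2.13 by limma-voom and -4.72 with the share of alignments outside genes as a covariate, none called. MuLV-int had the largest spread within groups of all 851 repeat names tested, with a pooled SD of 2.38 on the log2(CPM + 0.5) scale, against a median of 0.34 over those names. It was also the only one of them for which any single library lay more than 10-fold below all the others. Whether a provirus is present in some of these embryos and absent in knockout 2 was not tested, as the counts do not separate copies.

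The other names of the MuLV set did not share this drop to the same extent. RLTR4_MM-int, a second internal region of the MuLV group, had counts of 360, 328 and 427 (controls) against 540, 232 and 498 (knockouts). That is 12.4, 11.1 and 15.1 CPM against 20.8, 8.60 and 17.0 CPM, with knockout 2 lowest and knockouts 1 and 3 above all controls. Its log2 fold change was 0.27 ± 0.32, with an edgeR adjusted p of 0.539. RLTR4_Mm, the LTR of this group, had counts of 90, 94 and 86 (controls) against 84, 66 and 105 (knockouts), at 2.45 CPM in knockout 2 and 3.04 to 3.59 CPM elsewhere. The ratio of MuLV-int to RLTR4_MM-int counts, which is not corrected for length and is set side by side only between libraries, came to 7.90, 9.97 and 7.58 (controls) against 6.76, 0.159 and 4.39 (knockouts).

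**Figure D1:**
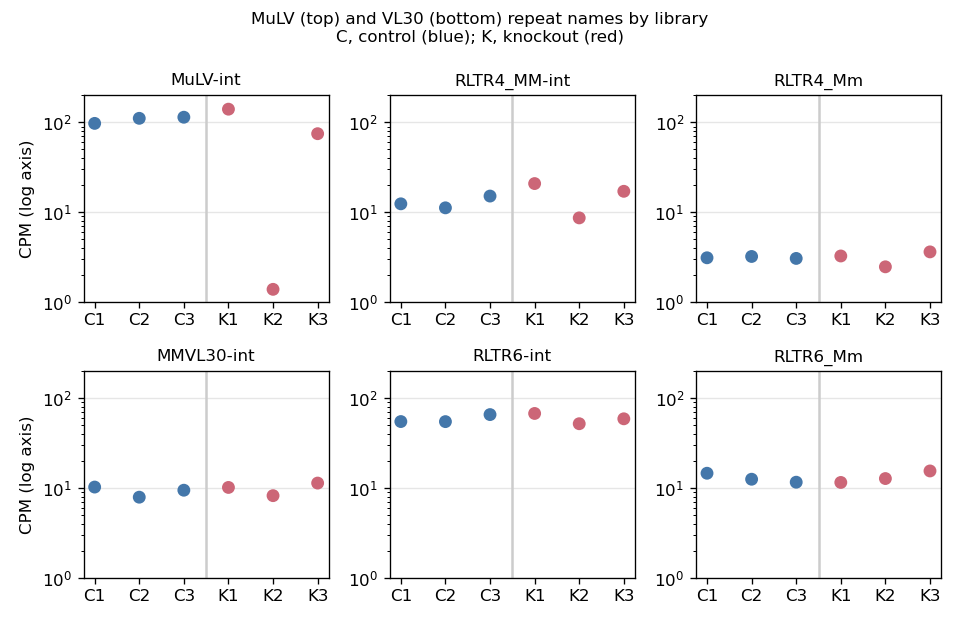
Level of the 3 MuLV names (top) and 3 VL30 names (bottom) in each library, in CPM on a log axis, with 1 point per library (C, control, and K, knockout). MuLV-int is at 1.37 CPM in knockout 2 and at 74.9 to 141 CPM in the other embryos, while the 3 VL30 names vary little.

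VL30 names varied little across the embryos. MMVL30-int, the internal region of VL30, had counts of 298, 232 and 267 (controls) against 263, 221 and 331 (knockouts). That was 9.18 ± 1.19 CPM in controls and 9.88 ± 1.58 CPM in knockouts (SD, n = 3), with the groups overlapping. RLTR6_Mm, the LTR of VL30, had 425, 368 and 328 counts against 299, 343 and 452. RLTR6-int, the second internal name, had 1604, 1617 and 1864 against 1760, 1403 and 1726. Log2 fold changes of the 3 were 0.11 ± 0.21, 0.04 ± 0.20 and 0.03 ± 0.19 (SE), with edgeR adjusted p-values of 0.707, 0.895 and 0.925. Summed over the 3 names, VL30 stood at 79.8, 75.3 and 86.8 CPM in the controls and 89.4, 73.0 and 85.8 CPM in the knockouts.

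Most RLTR names were high in knockouts 1 and 3 and at control level in knockout 2. Over the 96 names that passed the filter on low counts, MuLV and VL30 included, the median log2 difference from the control mean was 0.61, -0.12 and 0.62 in knockouts 1, 2 and 3, and -0.22, -0.0055 and 0.20 in controls 1, 2 and 3. Knockouts 1 and 3, the libraries with the largest share of alignments outside genes, lay above the other 4 for 79 of the 96 names (82.3%), as they did for 77.9% of all repeat names tested. Knockout 2 lay within the control range for 62 names, below every control for 27 and above every control for 7. It was the lowest of the 6 libraries for 27 names (28.1%), against 19.9% of all repeat names. Shares of all repeat names with knockout 2 within or above the control range are not given here. Control 1, with the smallest share outside genes, was the lowest library for 59 names (61.5%), and for 57.3% of all repeat names. The order of the 6 libraries by median level followed their order by share outside genes, except that knockouts 1 and 3 changed places at nearly equal values. The part of that share in the result was not tested beyond a fit with it as a covariate, given with the counts of calls.

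**Figure D2:**
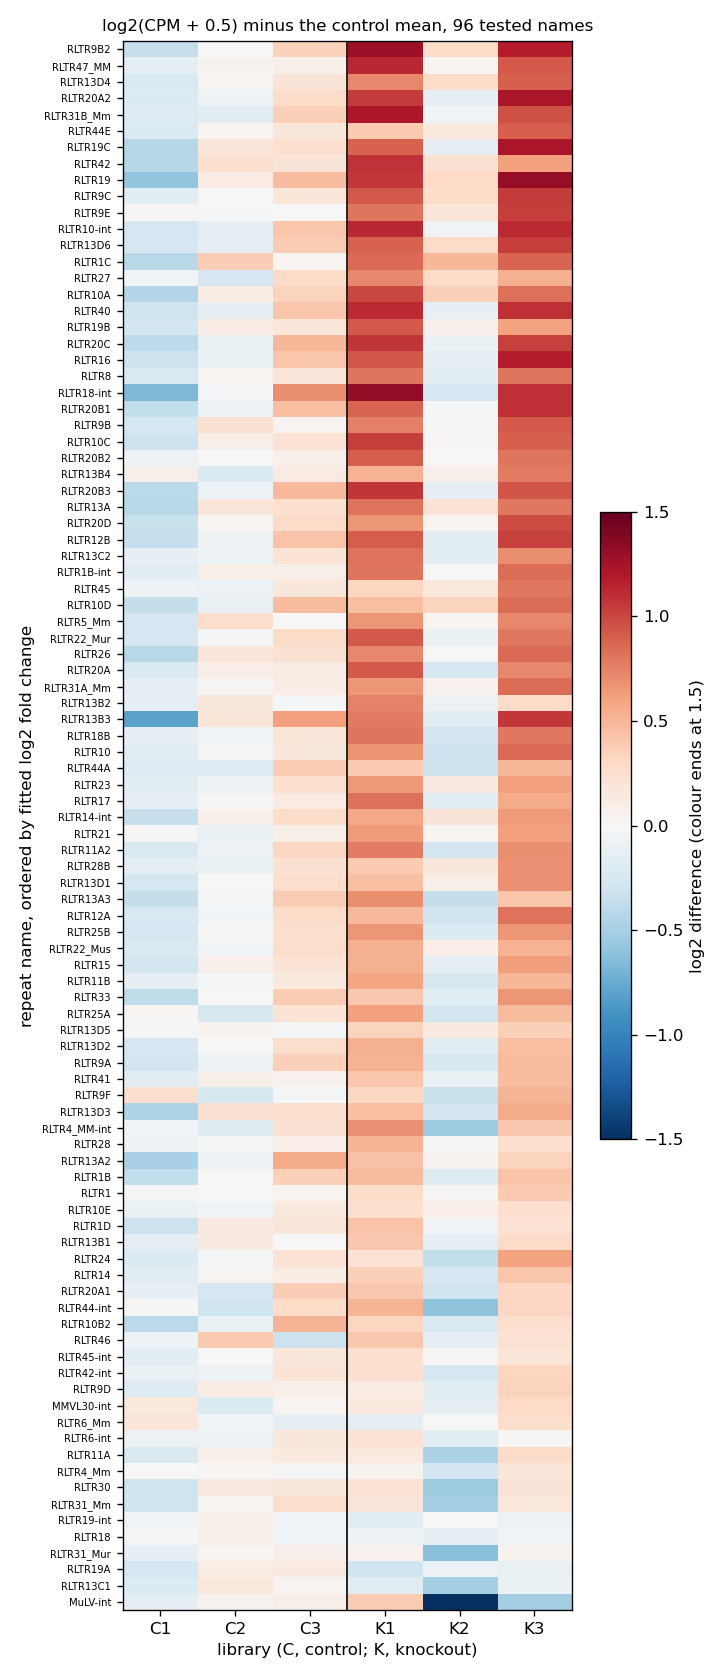
Difference of each tested name from its control mean, on the log2(CPM + 0.5) scale, in the 6 libraries (columns; C, control; K, knockout), with names ordered by fitted fold change and colours ending at 1.5. Knockouts 1 and 3 are red for most of the 96 names, knockout 2 is pale, and MuLV-int in the last row is dark blue in knockout 2 alone.

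**Figure D3:**
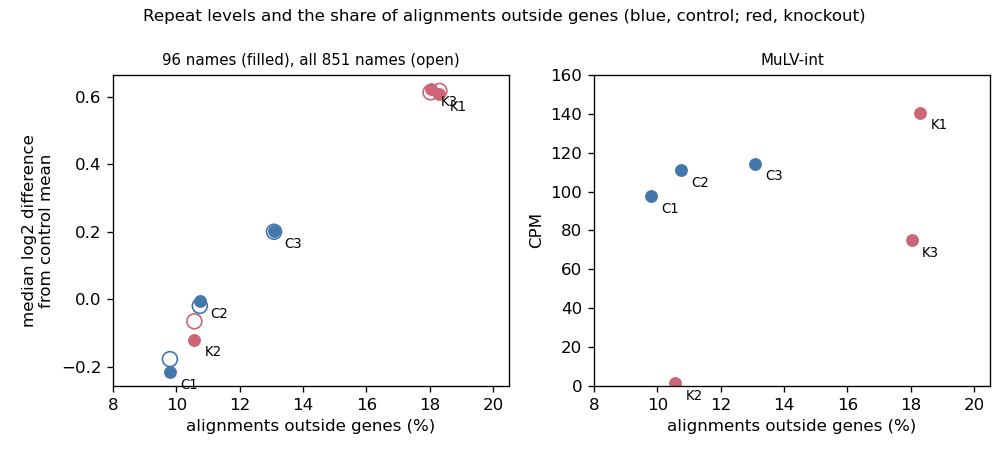
Left, the median log2 difference from the control mean per library against the percentage of alignments outside genes, for the 96 names (filled) and all 851 repeat names tested (open). Right, MuLV-int in CPM against the same percentage. The medians follow the percentage in both sets of names, from -0.22 in control 1 to 0.62 in knockout 3 for the 96 names, while MuLV-int does not.

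Of the 96 names, none was called by edgeR at an adjusted p under 0.05, and the percentage called among all 851 repeat names was 0% in both directions. DESeq2 and limma-voom called no member either, with 21 and 8 members at an unadjusted p under 0.05, among 199 and 81 of the 851 repeat names. The smallest edgeR adjusted p of a member was 0.275. By edgeR 9 names had an unadjusted p under 0.05, all higher in knockouts, which is 9.38% against 12.8% of all repeat names. Fitted folds were above 0 for 87 of the 96 (90.6%), against 91.4% of all repeat names, and below 0 for 9. Their median log2 fold change was 0.47, against 0.48 over all repeat names tested. The groups did not overlap for 7 higher names (7.29%, against 10.7% of all repeat names) and 1 lower name (1.04%, against 1.41%). When the repeat counts themselves set the scaling, which takes out the shift common to repeats, 49 of 95 names had folds above 0 and the median was 0.014.

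The absence of calls rested on knockout 2. Without that embryo edgeR called 58 of 98 names higher and none lower, while of 886 repeat names 542 (61.2%) were higher and 0.226% lower in the same fit. The members' share, 59.2%, was near that of all repeats. In that fit alignments outside genes made up 9.79% to 13.1% in controls and 18.0% to 18.3% in knockouts. Genotype and this share therefore cannot be told apart there. Without any 1 of the other 5 embryos no member was called. With the share of alignments outside genes as a covariate, the median log2 fold change of the members was -0.082. RLTR11A and RLTR31_Mur were called lower, in a fit where 0.823% of repeat names were higher and 0.705% lower. Without the covariate their log2 fold changes were 0.014 and -0.14. RLTR11A was at 23.2, 28.6 and 30.0 CPM (controls) against 30.2, 19.4 and 33.0 CPM (knockouts). RLTR31_Mur was at 9.60, 10.8 and 11.1 CPM against 11.0, 6.60 and 10.9 CPM. For both names, only knockout 2 lay below every control.

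**Figure D4:**
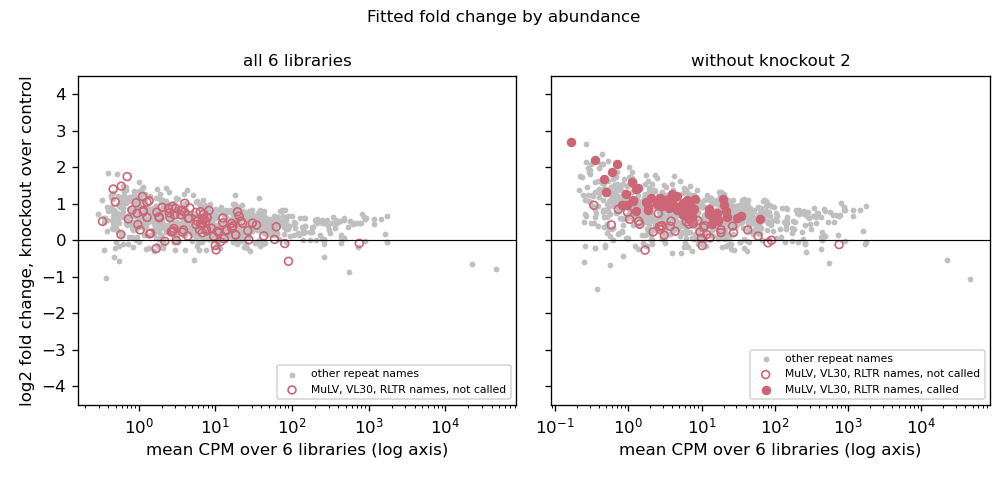
Fitted log2 fold change (knockout over control) against mean CPM on a log axis, for the MuLV, VL30 and RLTR names (red; filled where called by edgeR) and all other repeat names (grey), with all 6 libraries and without knockout 2. The red points lie among the grey ones in both panels, with none called on the left and 58 called on the right.

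RLTR9 names, LTRs of the ERVK class known to carry enhancers in embryonic stem cells, held 3 of the 5 members with the smallest p. RLTR9C had counts of 47, 55 and 62 (controls) against 104, 64 and 129 (knockouts), with means of 1.89 ± 0.289 and 3.60 ± 1.08 CPM (SD, n = 3). It was above all controls in every knockout, with knockout 2 the lowest of the 3, at a log2 fold change of 0.93 ± 0.31 (SE; edgeR adjusted p = 0.275). RLTR9E had 42, 41 and 40 counts against 74, 45 and 100, with the groups apart and a log2 fold change of 0.90 ± 0.33. RLTR9B2 had the highest fold change of all members, 1.74 ± 0.60, from 4, 9 and 15 counts against 38, 13 and 39, and here knockout 2 lay within the controls. Of the 7 RLTR9 names tested all had folds above 0, from 0.12 for RLTR9D to that of RLTR9B2, where 91.4% of all repeat names did. None of the RLTR9 names was called with all 6 libraries. Without knockout 2 the edgeR adjusted p was 0.00712 for each of RLTR9C, RLTR9E and RLTR9B2. Other members, such as RLTR10-int and RLTR40, had the same adjusted p in that fit, which called 61.2% of all repeat names higher. With the share of alignments outside genes as a covariate, log2 fold changes of RLTR9C, RLTR9E and RLTR9B2 were 0.40, 0.39 and 0.60, none called.

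RLTR13 is a second ERVK group, of which RLTR13D5 is known as an enhancer in trophoblast stem cells. Its 15 names had a median log2 fold change of 0.45, with 14 above 0. Over all repeat names the median was 0.48, with 91.4% above 0. RLTR13D4 had counts of 4, 8 and 10 (controls) against 19, 11 and 26 (knockouts), at 1.40 ± 0.50 and with the groups apart. RLTR13D5 had 73, 79 and 71 counts against 87, 77 and 100, and its lowest knockout, at 2.86 CPM, was just above the highest control, at 2.68 CPM. RLTR13B3 was among the members that varied most within groups, with 83, 179 and 239 counts against 247, 127 and 340. RLTR13C1 was the 1 name of the group below 0, at -0.26 ± 0.21, from 279, 366 and 325 counts against 257, 208 and 301. RLTR47_MM, a name with few reads, had 7, 10 and 10 counts against 33, 9 and 30, and so was high only in knockouts 1 and 3.

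The sums of the RLTR10 and RLTR20 groups were also high in knockouts 1 and 3. RLTR10 names summed to 15.8, 19.5 and 25.1 CPM in the controls and 37.5, 20.4 and 38.0 CPM in the knockouts. RLTR20 names summed to 15.7, 19.3 and 26.6 CPM against 41.5, 18.2 and 41.1 CPM. In both, knockout 2 lay inside the control range and the other knockouts above it. All 7 tested RLTR10 names and all 8 RLTR20 names had folds above 0, where 91.4% of all repeat names did. Their medians were 0.62 and 0.74, and none was called. The same held for the sums of many other groups, among them RLTR9, RLTR12, RLTR13, RLTR16 and RLTR22. The pattern was therefore not particular to RLTR10 and RLTR20. In some groups, such as RLTR11 and RLTR25, knockout 2 lay below every control. RLTR20C, with a wide spread within groups, had counts of 52, 67 and 106 (controls) against 151, 62 and 164 (knockouts). RLTR40 had 136, 157 and 226 counts against 345, 143 and 383.

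Internal regions differed among themselves. Their sum is not a fair summary, because RLTR19-int alone held 43.2% of all member counts. RLTR19-int had counts of 21860, 24338 and 21357 (controls) against 18061, 20758 and 21507 (knockouts), or 777 ± 43.2 and 734 ± 37.4 CPM (SD, n = 3), and its log2 fold change was -0.08 ± 0.16 (edgeR adjusted p = 0.707). RLTR45-int (0.15) and RLTR42-int (0.12) also had small log2 fold changes. RLTR18-int was of the other kind, with counts of 238, 383 and 619 (controls) against 884, 296 and 844 (knockouts), and a control range of 8.16 to 21.9 CPM that held knockout 2 at 11.0 CPM. RLTR10-int had 75, 83 and 125 counts against 196, 82 and 220, and RLTR1B-int 157, 193 and 186 against 288, 166 and 332. RLTR14-int had 570, 777 and 862 against 981, 777 and 1151, with 28.8 CPM in knockout 2 and 30.4 CPM in control 3. RLTR44-int was sparse, at 18 to 53 counts per library. Over the 12 internal names the median log2 fold change was 0.16, with 10 above 0, and over the 84 tested LTR names it was 0.51, with 77 above 0. This difference was not tested.

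The 10 most counted names held 69.1% of the member counts and had a median log2 fold change of 0.073, against 0.52 for the other 86, a difference that was not tested. They ranged from MuLV-int, the lowest of all members, to RLTR14-int at 0.47. RLTR18, an LTR name, had counts of 2359, 2603 and 2252 (controls) against 2048, 2038 and 2324 (knockouts). Its groups did not overlap by the narrowest margin, with control 3 at 79.51 and knockout 3 at 79.50 CPM, and its log2 fold change was -0.09 ± 0.16. RLTR18 and RLTR18-int thus gave different values in the same embryos, the LTR name level and the internal name highest in knockout 1. RLTR15, also among the most counted names, had 1292, 1676 and 1760 counts against 2037, 1318 and 2447. RLTR31_Mur (-0.14) and RLTR19A (-0.22) were the remaining low names chosen by p, with 280, 318 and 313 counts against 285, 178 and 319 for RLTR31_Mur and 36 to 59 per library for RLTR19A.

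The other 8 members had too few reads to test. RLTR3_Mm, the LTR of mouse mammary tumour virus, had counts of 0, 0 and 1 (controls) against 3, 1 and 0 (knockouts). RLTR43B had 1 count in all. RLTR43A, RLTR44B, RLTR44C, RLTR44D, RLTR9A2 and RLTR10B completed the set, with at most 58 counts over the 6 libraries, the total of RLTR10B.

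Host genes that silence these elements gave no call. Of 29 tested genes of a list for silencing none was called by edgeR (in all genes 0.578% were higher and 0.937% lower), by DESeq2 or without any 1 embryo, with 3 at an unadjusted p under 0.05, where 19.2% of all genes were, and a median log2 fold change of 0.015. Trim28 averaged 639 ± 23.1 CPM (controls) and 567 ± 41.5 CPM (knockouts; SD, n = 3), at -0.17 ± 0.08 (SE; edgeR adjusted p = 0.295) and with every knockout below every control. Setdb1 was at 0.15 ± 0.07 (edgeR adjusted p = 0.291), with every knockout above every control. The share of all genes whose groups did not overlap is not given here, so these 2 separations stand without that background. Zfp809 had 274, 305 and 280 counts against 299, 230 and 315, at 0.06 ± 0.14. Cbx1, a heterochromatin protein 1 gene, had the smallest p, at -0.23 (edgeR adjusted p = 0.136). Smarcad1, a chromatin remodeller that acts at endogenous retroviruses, was at -0.18 and the maintenance DNA methyltransferase gene Dnmt1 at 0.17.

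Genes for retroviral entry and restriction gave no call by edgeR either, in 18 tested, with 4 at an unadjusted p under 0.05, again beside 19.2% of all genes, and a median of 0.098. Slc7a1, the amino acid transporter that ecotropic MuLV uses as its receptor, had counts of 1343, 1631 and 1620 (controls) against 1647, 1896 and 2143 (knockouts). That was 52.9 ± 5.98 CPM against 69.0 ± 5.09 CPM (SD, n = 3), with the groups apart, a log2 fold change of 0.38 ± 0.10 (SE; edgeR adjusted p = 0.105). It was called by DESeq2 (adjusted p = 0.0287) and by edgeR without knockout 2 (adjusted p = 0.0478). Slc20a1, the phosphate transporter known as a receptor of gibbon ape leukaemia virus, stood at 0.40 ± 0.14 (edgeR adjusted p = 0.169), and was called by edgeR without knockout 2 (adjusted p = 0.015). Its levels were 84.1, 106 and 112 CPM (controls) against 138, 109 and 151 CPM (knockouts), with knockout 2 inside the control range. The shares of all genes called in these alternative fits, or with groups apart, are not given here. The calls of Slc7a1 and Slc20a1 therefore stand without that background. Slc20a2, the amphotropic receptor gene, was at 0.12, and Xpr1, the receptor gene of xenotropic and polytropic viruses, at 0.08. Serinc5, a membrane protein that limits infectivity, was at 0.28 and the antiviral family gene Trim30a at -0.56, with edgeR adjusted p-values of 0.124 and 0.245.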

How the data were processed

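Per the labels' protocols, whole-embryo polyadenylated RNA went into stranded KAPA libraries. The authors deposited 2 tables per embryo, of whole-number counts per gene symbol and per repeat name, without normalization. Trimmomatic, TopHat2, Bowtie2, HTSeq and the mm9 build are named in the submitters' processing notes; versions, strand setting and annotations were not given in the sources used here. Alignments that were not unique, 18.2% to 22.6% per library, and those outside genes, 9.79% to 18.3%, stand in rows that name no feature and stayed out of library sizes and tests. The gene and repeat tables of a library list the same number of alignments that were not unique, so young repeats are represented by reads that tell their copies apart.

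Repeat names were fitted with edgeR 4.0.16 in R 4.3.3 (quasi-likelihood F test, robust, group as the only term), with TMM library sizes of the gene counts, also used for CPM. A filter (filterByExpr, minimum count 10, minimum total 15) kept 851 of 1217 repeat names and 15052 genes. Adjusted p-values are Benjamini-Hochberg over all names or genes tested, called under 0.05. Standard errors were taken as |log2 fold change| divided by the root of F. Spreads on a log scale use log2(CPM + 0.5). The scripts were tested on simulated counts. Libraries were distinct (chi-square per degree of freedom 13.1 to 107). Alternatives used DESeq2 1.42.0, limma-voom (limma 3.58.1), other scalings and filters, a block, and each library left out. Members and lists were chosen with earlier results of these data known. Named members are MuLV-int, MMVL30-int, RLTR4_Mm, RLTR6_Mm, all -int names tested, the 5 with most counts, the 5 of smallest p in each direction, and the 5 with the widest spread within groups. Named genes are H3f3a, H3f3b, Trim28, Setdb1, Zfp809, 4 receptor genes and up to 4 genes per list with the smallest p. RLTR9D, RLTR13D5, RLTR11A and the names without tests were named, and single libraries 10-fold from the rest searched for, after their values were seen.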

Additional observations from a re-analysis of the deposited data

How the results depend on the processing

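No member was called under any alternative except without knockout 2 and with the share of alignments outside genes as a covariate. Without single libraries the members called ranged from 0 to 58, all repeat names called from 0 to 544, host genes called from 0 to 2 and the members' median log2 fold change from 0.32 to 0.73, each highest without knockout 2. With the covariate, added after seeing the data, 2 members and 13 repeat names were called and the median was -0.082. DESeq2 called 2 repeat names, ETnERV3-int and RMER17A-int, neither a member, and 1 host gene, Slc7a1. TMM on the repeat counts moved the median to 0.014. With the replicate number as a block 0 members and 1 host gene, Slc7a1 (edgeR adjusted p = 0.0281), were called. Same-numbered embryos deviated together unevenly (r = -0.29, 0.072 and 0.45 for numbers 1, 2 and 3 over repeats). These values do not show that the numbers pair embryos, and embryos of different numbers were not correlated. Summing knockouts 2 and 3, whose file names share a code of unstated meaning, called 0 members, with 46 members and 415 of all repeat names at an unadjusted p under 0.05.

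Many uncalled members changed sign under 2 settings, with folds above 0 for 49 of 95 under TMM on the repeat counts and 35 of 96 with the covariate; the cause was not tested, and only members named by the rule are listed here. Under TMM on the repeat counts they were MMVL30-int (-0.34), RLTR6_Mm (-0.39), RLTR6-int (-0.39), RLTR42-int (-0.32), RLTR44-int (-0.31), RLTR45-int (-0.26), RLTR4_MM-int (-0.23) and RLTR15 (-0.085). With the covariate they were MMVL30-int (-0.089), RLTR10-int (-0.0096), RLTR18-int (-0.32), RLTR42-int (-0.23), RLTR44-int (-0.78), RLTR45-int (-0.014), RLTR4_MM-int (-0.45), RLTR6-int (-0.17), RLTR15 (-0.10), RLTR13B3 (-0.29), RLTR40 (-0.076) and RLTR20C (-0.12). RLTR4_Mm was at 0.057 with gene count totals and 0.0071 with 2 knockouts summed, RLTR6_Mm at -0.0089 with 2 summed, and RLTR6-int at -0.017 with counts outside genes in the library size. MuLV-int kept its sign but moved to -1.51 with the block. Without single libraries the ranges were -1.49 to 0.0001 for MuLV-int, -0.0067 to 0.23 for MMVL30-int, -0.13 to 0.14 for RLTR4_Mm, -0.092 to 0.14 for RLTR6_Mm, -0.12 to 0.52 for RLTR44-int, -0.071 to 0.12 for RLTR6-int, -0.26 to 0.061 for RLTR31_Mur, -0.027 to 0.17 for Zfp809 and -0.020 to 0.15 for Xpr1.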

Other observations

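Libraries that lacked 1 transcript were searched for after the values were seen. At any level, genes more than 10-fold below the other 5 libraries numbered 13 in knockout 2, 5 in knockout 3, 2 each in control 1 and knockout 1, and 0 in controls 2 and 3, of 15052 tested. Among genes with at least 1 CPM in the other 5 libraries, 3 had 1 library more than 10-fold below the rest. Htatip2 had 4 counts in knockout 2, or 0.148 CPM, against 1.57 to 3.06 CPM elsewhere, and so was low in the same embryo as MuLV-int. The pseudogene Rps15a-ps6 had 28 counts in control 1, at 0.96 CPM against 15.8 to 44.6 CPM. Gm9199 had 0 counts in knockout 3, against 3.31 to 5.23 CPM in the others. No gene tested had a library more than 10-fold above all the others.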
